A study of Homo sapiens with 12 samples.

Results

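The genes described here are 48 hosts of neural microexons, chosen by symbol from what is known of exons that the splicing factor SRRM4 acts on. Only hosts present in the deposited count table were taken, so all 48 are among its 13001 genes. The study transfected LNCaP cells (clone FGC), an androgen-sensitive line from a lymph node metastasis of prostate cancer, and sequenced polyA RNA. Of the 12 libraries, 3 came from cells given an empty vector, 3 from cells given LSD1, 3 from cells given LSD1+8a and 3 from cells given SRRM4. All 4 groups were LNCaP cells at passage 8, grown in RPMI with fetal bovine serum and transfected transiently with Lipofectamine, with fresh medium given at 6 h, so every group carried a transfection. The time of harvest is not given in the labels. Nothing in them states that replicate libraries were made from independent transfections, so the p-values below measure only the spread between libraries, which may be technical. LNCaP is 1 cell line, and the comparisons describe that line alone.

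Microexons are very short exons that neurons include and most other cells skip. SRRM4 is a splicing factor of neurons and endocrine cells that binds just upstream of such exons and promotes their inclusion, usually without a shift of the reading frame, so that the protein gains only a few residues. LSD1, encoded by KDM1A, is a histone demethylase, and LSD1+8a is its neuronal isoform, made when the microexon called exon 8a is included. In prostate cancer, SRRM4 is known for its link to the neuroendocrine form of the disease. The host genes encode synaptic vesicle proteins, synaptic scaffolds, cytoskeletal proteins, signalling proteins and translation factors, and most are also expressed outside the nervous system. A count per gene sums over all isoforms, so the values below are total expression of the hosts and do not show whether a microexon was included.

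Annotated short exons are shown first, because the 48 genes were chosen as hosts of such exons. In GENCODE v29 (GRCh38), 41 of the 48 genes held at least 1 internal coding exon of 3 to 27 bases. There were 73 such exons with a median of 18 bases. Of these, 70 had a length that is a multiple of 3 and 69 were skipped in at least 1 annotated coding transcript. The 7 genes without one in this annotation were ITSN2, STXBP5, SVIL, DAAM1, EXOC1, EXOC7 and ZMYND8. The sequences below are from 5 of the hosts that were called in at least 1 comparison with SRRM4. Each runs 5′ to 3′ on the gene's strand in the spliced transcript, with the short exon in capitals and 20 bases of each neighbouring exon in lower case. The positions on the plus strand are chr1:1051032-1051043 and chr1:1051993-1052016 for AGRN and chr20:37386460-37386477 for SRC. On the minus strand they are chr21:32676332-32676355 for SYNJ1, chr2:127053422-127053445 for BIN1 and chr5:131450023-131450046 for RAPGEF6.
AGRN, first: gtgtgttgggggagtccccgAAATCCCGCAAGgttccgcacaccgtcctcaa
AGRN, second: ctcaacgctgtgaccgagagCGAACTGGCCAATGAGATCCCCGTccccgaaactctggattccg
SRC: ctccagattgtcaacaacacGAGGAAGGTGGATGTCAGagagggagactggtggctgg
SYNJ1: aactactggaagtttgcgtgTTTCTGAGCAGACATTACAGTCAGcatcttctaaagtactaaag
BIN1: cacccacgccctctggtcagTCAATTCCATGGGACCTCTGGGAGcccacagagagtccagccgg
RAPGEF6: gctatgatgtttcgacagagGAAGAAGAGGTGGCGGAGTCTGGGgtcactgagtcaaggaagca
The AGRN exons of 12 and 24 bases lie at the y and z sites of agrin, and the SRC exon of 18 bases is the insert of neuronal N1-Src. The 24-base exon of SYNJ1 was present in 3 and skipped in 3 of its 6 annotated coding transcripts that span it. RAPGEF6 has a further exon of 15 bases (chr5:131469801-131469815), and KIF1B, also called, has exons of 18 and 27 bases. They are not shown, and the annotation does not state which short exons SRRM4 acts on.

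Paralogous hosts can carry a short exon of the same length. Among 5 paralog pairs, exons of equal length were compared without gaps, and the best match of each exon of the first gene was kept. Of the 8 pairs of exons kept, the 4 that matched at the largest share of bases are shown. The APBB1 and APBB2 exons lie at chr11:6401977-6401982 and chr4:40842370-40842375, both on the minus strand. Those of CLASP1 and CLASP2 lie at chr2:121401868-121401870 and chr3:33563964-33563966, also on the minus strand. For CPEB2 and CPEB4 the positions are chr4:15040464-15040487 and chr5:173943026-173943049, both on the plus strand. For EIF4G1 and EIF4G3 they are chr3:184316713-184316733 on the plus strand and chr1:20982388-20982408 on the minus strand.
APBB1: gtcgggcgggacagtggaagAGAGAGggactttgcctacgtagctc
APBB2: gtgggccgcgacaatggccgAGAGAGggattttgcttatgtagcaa
CLASP1: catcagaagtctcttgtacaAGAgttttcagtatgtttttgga
CLASP2: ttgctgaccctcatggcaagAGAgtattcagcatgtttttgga
CPEB2: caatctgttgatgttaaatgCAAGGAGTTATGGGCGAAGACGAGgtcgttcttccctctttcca
CPEB4: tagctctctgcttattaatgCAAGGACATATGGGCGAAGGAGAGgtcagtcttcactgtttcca
EIF4G1: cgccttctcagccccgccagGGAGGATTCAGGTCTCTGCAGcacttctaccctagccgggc
EIF4G3: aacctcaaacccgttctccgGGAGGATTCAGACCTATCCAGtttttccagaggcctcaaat
The exons of 6 bases in APBB1 and APBB2 were identical, as were those of 3 bases in CLASP1 and CLASP2. The CPEB2 and CPEB4 exons matched at 20 of 24 bases and the EIF4G1 and EIF4G3 exons at 17 of 21. Of the 4 pairs not shown, those of CLASP1 and CLASP2 matched at 20 of 27, 17 of 24 and 13 of 24 bases, and that of PTPRF and PTPRS at 16 of 27. In empty-vector cells the levels within these pairs were unequal, with 2.62 TPM for CPEB2 and 19.0 TPM for CPEB4, 306.1 TPM for EIF4G1 and 48.8 TPM for EIF4G3, 6.55 TPM for APBB1 and 12.9 TPM for APBB2, and 17.1 TPM for CLASP1 and 21.7 TPM for CLASP2. TPM is transcript abundance scaled to gene length and library size.

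In LNCaP cells with the empty vector, microexon hosts were expressed at levels ordinary for the genes of the count table. Each of those genes had at least 168 counts over the 12 libraries, so silent genes are left out on both sides. TPM is used here because levels are compared between genes. The median host had a mean of 19.1 TPM and the median of all 13001 genes was 18.9, with 25 of the 48 hosts above the latter. The highest was EIF4G1, a scaffold of the translation initiation complex, at 301.6, 304.7 and 312.1 TPM. PTPRF, a receptor tyrosine phosphatase, followed at 222.6, 223.6 and 212.9 TPM, and PPFIA2, a liprin-alpha of presynaptic active zones, at 119.4, 137.2 and 130.2 TPM. DNM2, the ubiquitous dynamin, had a mean of 91.4 ± 5.62 TPM (SD, n = 3) and EXOC7, an exocyst subunit, 84.6 ± 2.35 TPM. At the other end were AP1S2, a small subunit of the clathrin adaptor AP-1 (2.41 ± 0.810 TPM), and CPEB2, an mRNA-binding regulator of translation (2.62 ± 0.215 TPM). SVIL, the actin-binding protein supervillin (4.24 ± 0.440 TPM), SYNJ1, a phosphoinositide phosphatase of synaptic vesicle recycling (4.83 ± 2.28 TPM), and ROBO1, a Slit receptor (5.21 ± 0.868 TPM), were the next lowest.

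**Figure D1:**
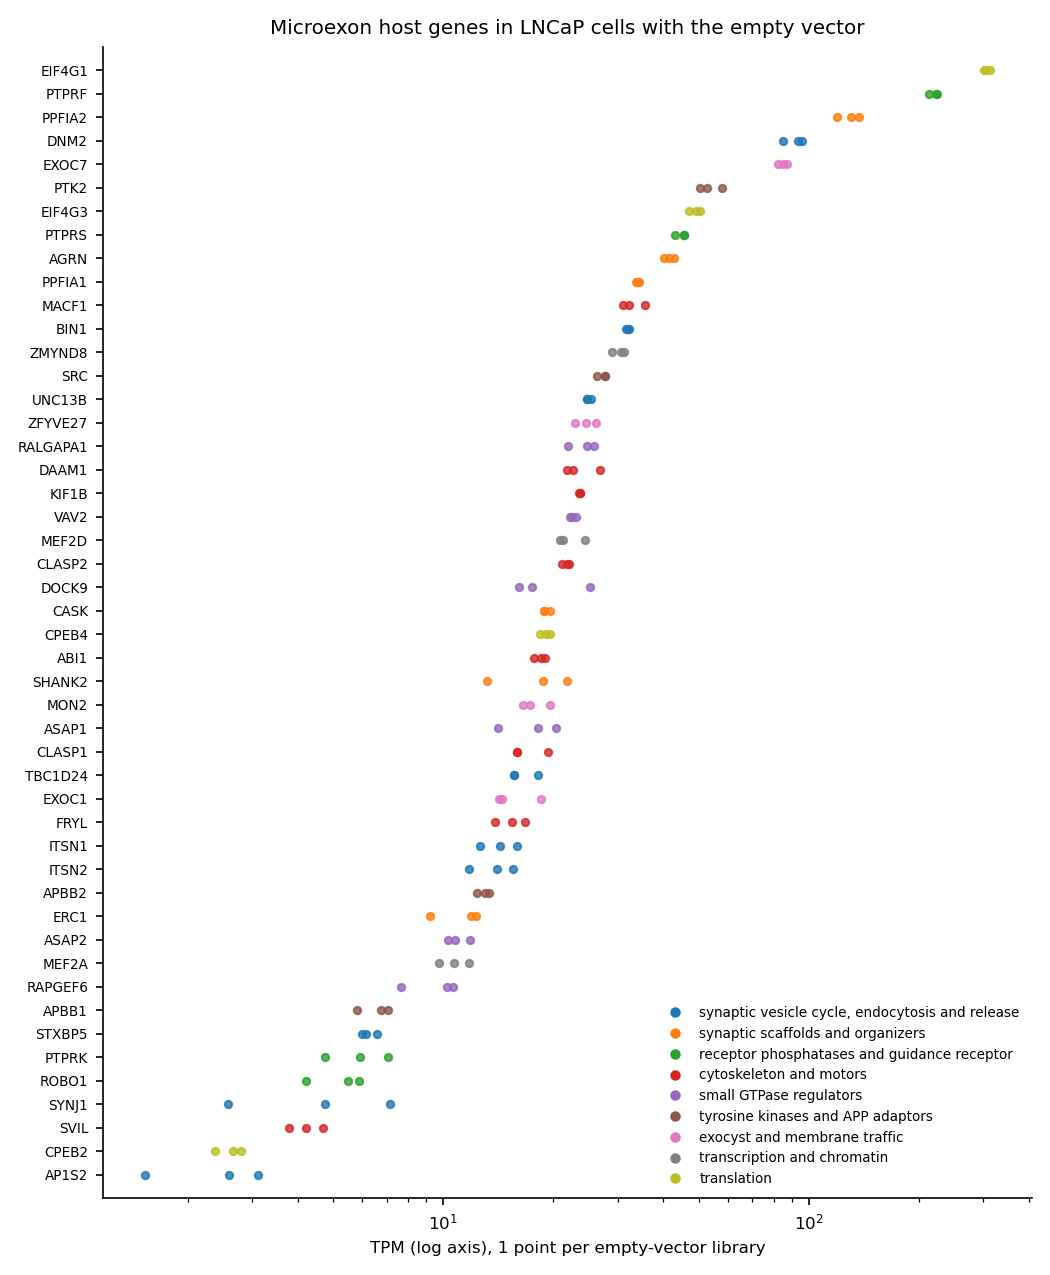
TPM of each of the 48 hosts in the 3 empty-vector libraries (1 point per library, log axis), with genes sorted by mean and coloured by role. EIF4G1 stands highest at a mean of 306.1 TPM and AP1S2 lowest at 2.41 TPM, and the points of SYNJ1 spread from 2.58 to 7.14 TPM.

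Depth was similar across groups, with 12750609 to 13570740 counts in the empty-vector libraries, 11658730 to 12565335 with LSD1, 12110101 to 13359671 with LSD1+8a and 10876293 to 11485489 with SRRM4, whose 3 libraries were the shallowest. Mitochondrial genes took 7.21 to 7.40% of the counts with the empty vector, 6.38 to 6.67% with LSD1, 6.64 to 7.12% with LSD1+8a and 6.63 to 6.89% with SRRM4. The empty-vector libraries thus lay above all others in this share, and its part in the comparisons with them was not tested. The hosts together took 0.523 to 0.530% of the counts with the empty vector and 0.528 to 0.536% with LSD1. With LSD1+8a they took 0.531 to 0.535% and with SRRM4 0.532 to 0.538%. Over the 12 libraries the median host had 7781 counts, against 4536 for all genes. KDM1A followed the labels, with 93.7 to 95.2 CPM (counts scaled to library size) with the empty vector, 515 to 587 with LSD1, 1983 to 2608 with LSD1+8a and 92.0 to 100.1 with SRRM4. The LSD1+8a libraries thus held more KDM1A than the LSD1 libraries (log2 fold change 2.07, SE 0.10), and isoform and amount cannot be told apart between them. The transcript of SRRM4 itself was not analysed here, so the label of those libraries was not checked by the transfected gene.

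Of the 14 luminal prostate markers, all were measured, and their summed level was 6957 to 7095 TPM with the empty vector and 6445 to 6454 TPM with SRRM4, where 7 were called lower and 1 higher. Neuroendocrine and neuronal markers (9 of 17 measured) summed to 98.3 to 110.5 TPM with the empty vector and 198.9 to 210.7 TPM with SRRM4, where 8 were called higher. Over all genes, 4.47% were called higher and 3.22% lower with SRRM4 against the empty vector. Both marker lists were chosen with earlier results of these data known. The part of these markers in the host results was not tested. In bulk RNA, fewer cells that express a gene and less RNA per cell cannot be told apart.

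With SRRM4, 6 of the 48 hosts differed from the empty vector at an adjusted p under 0.05 (edgeR's quasi-likelihood test with Benjamini-Hochberg adjustment over all 13001 genes). AGRN, RAPGEF6, SYNJ1 and BIN1 rose and PPFIA2 and SVIL fell. These 6 are 12.5% of the hosts, beside 7.68% of all genes called in that comparison (4.47% higher and 3.22% lower). Among the 4410 genes with at least as many counts as the median host, a group chosen after the data were seen, 12.7% were called. Those genes had a median of 14595.5 counts over the 12 libraries, against 7781 for the hosts, so they were not matched in depth. The log2 fold changes of the 48 hosts ran from -0.29 to 0.47. Their median absolute size was 0.05, beside 0.08 over all genes. There were 23 above 0 and 25 below 0. All 3 SRRM4 libraries lay above all 3 empty-vector libraries in CPM for 9 hosts and below them for 7, while 13% and 12.3% of all genes did so. Beside the 4 called higher, the 9 were ITSN2, KIF1B, CLASP1, ABI1 and CPEB4, and beside the 2 called lower, the 7 were ERC1, PTPRF, ASAP2, APBB2 and EIF4G3. At an unadjusted p under 0.05 there were 14 hosts, beside 20.8% of all genes.

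**Figure D2:**
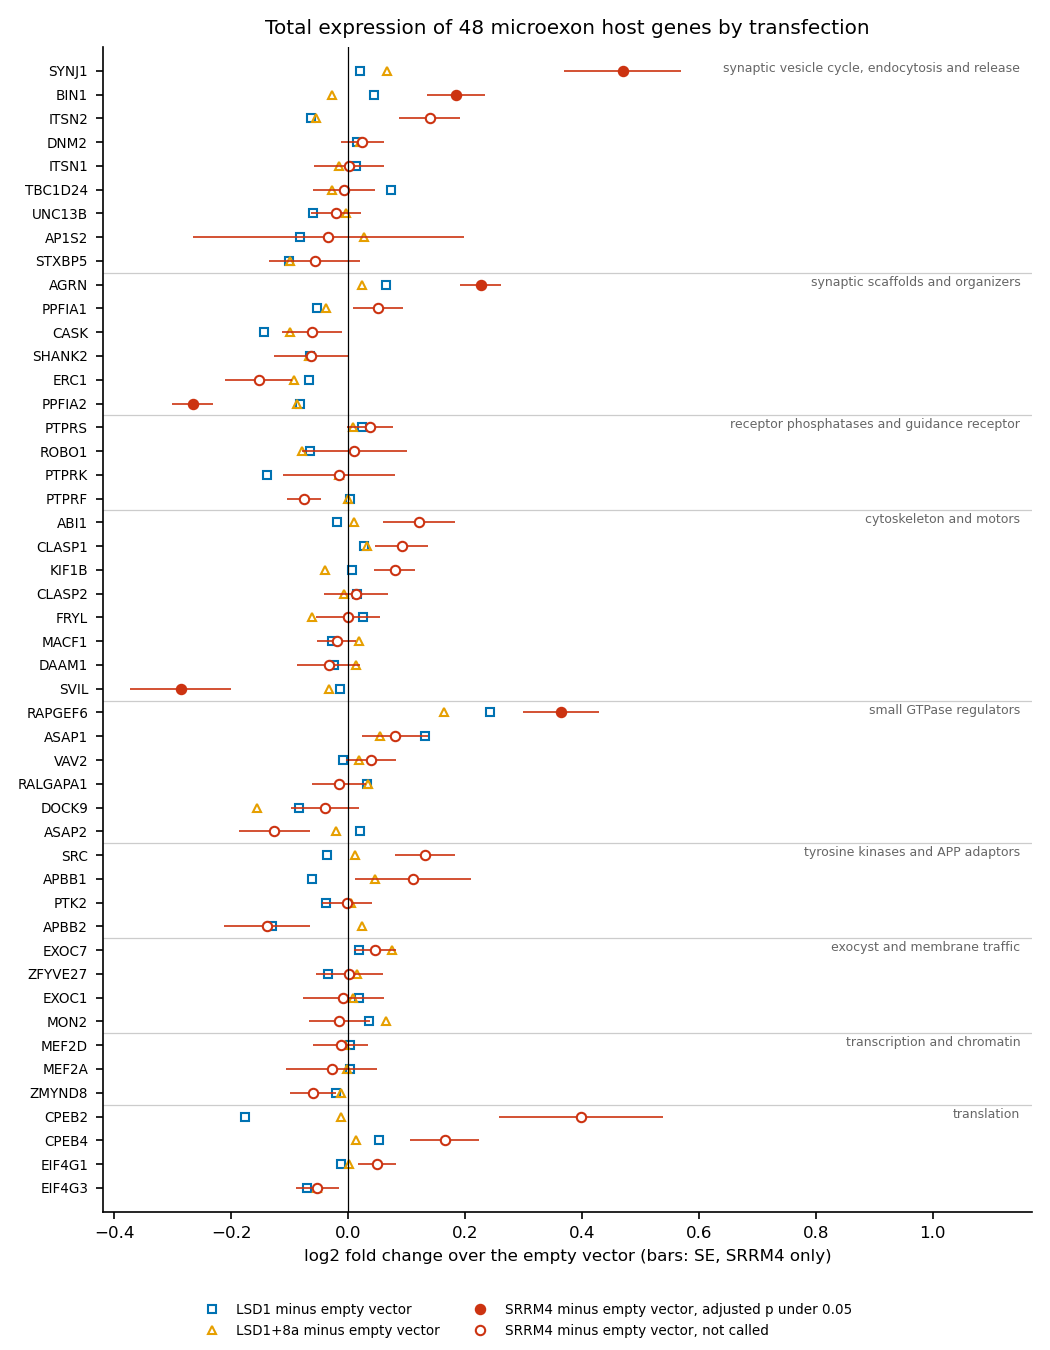
Log2 fold change of total expression over the empty vector for the 48 hosts, grouped by role, in LSD1 (squares), LSD1+8a (triangles) and SRRM4 (circles, with SE bars, filled where the adjusted p was under 0.05). The filled circles are SYNJ1, BIN1, AGRN and RAPGEF6 to the right of 0 and PPFIA2 and SVIL to the left, and most other symbols sit near 0.

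The synaptic vesicle cycle and endocytosis genes gave 2 of the 4 rises among 9 hosts, and none of the 9 was called lower. Over all genes, 4.47% were called higher and 3.22% lower with SRRM4 against the empty vector. SYNJ1 measured 16.5, 13.2 and 13.5 CPM with the empty vector, 13.6, 13.7 and 16.5 with LSD1, 17.4, 13.9 and 13.8 with LSD1+8a, and 19.9 in each of the 3 SRRM4 libraries. All SRRM4 values lay above the other 9, which overlapped among themselves. The log2 fold change over the empty vector was 0.47 (SE 0.10, adjusted p = 0.00184), the largest of the 48. In TPM the same libraries scattered widely, with 4.76, 7.14 and 2.58 for the empty vector and 5.08, 7.81 and 10.6 for SRRM4, and there the groups overlapped and limma on log2(TPM + 1) gave an adjusted p of 0.299.

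BIN1, amphiphysin II, a membrane-curving protein, measured 54.5, 57.6 and 55.0 CPM with the empty vector and 65.7, 64.0 and 60.2 CPM with SRRM4. With LSD1 it measured 58.8, 55.8 and 57.7 CPM and with LSD1+8a 56.0, 53.3 and 54.6 CPM, so the SRRM4 libraries were again the 3 highest. Its log2 fold change was 0.18 (SE 0.05, adjusted p = 0.0148). The call was lost without empty-vector library 1 (adjusted p = 0.0711) or 3 (0.0514), without SRRM4 library 1 (0.103) or 2 (0.0570), in DESeq2 (0.0865) and with GC and length trends removed (0.0577).

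ITSN2, an endocytic scaffold, stood at 46.4, 42.6 and 44.4 CPM with the empty vector and 49.3, 48.9 and 48.7 CPM with SRRM4 (log2 fold change 0.14, SE 0.05, adjusted p = 0.102). The libraries did not overlap, and the difference was not called. The remaining 6 genes of this role, ITSN1, DNM2, AP1S2, the priming factor UNC13B, the syntaxin-binding STXBP5 and the GTPase-activating TBC1D24, had log2 fold changes between -0.06 and 0.02. AP1S2 had the widest error of all hosts (SE 0.23).

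Among 6 synaptic scaffolds and organizers, 1 rose and 1 fell, beside 4.47% of all genes higher and 3.22% lower. AGRN, the extracellular organizer of the neuromuscular synapse, measured 180.3, 178.5 and 176.1 CPM with the empty vector, 189.9, 181.5 and 187.7 with LSD1 and 188.8, 170.9 and 183.7 with LSD1+8a. With SRRM4 it measured 211.2, 208.1 and 206.5 CPM, above every other library, a log2 fold change of 0.23 (SE 0.04, adjusted p = 2.32e-05). In TPM, too, the groups were apart, at 41.5, 40.15 and 42.7 with the empty vector and 50.9, 49.05 and 56.1 with SRRM4.

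PPFIA2 moved the other way. It measured 156.75, 156.6 and 163.0 CPM with the empty vector, 151.3, 146.8 and 151.7 with LSD1, 149.0, 149.8 and 149.7 with LSD1+8a, and 129.2, 132.2 and 134.9 with SRRM4. The SRRM4 libraries were the 3 lowest and the empty-vector libraries the 3 highest. The log2 fold change was -0.27 (SE 0.04, adjusted p = 1.47e-06), the smallest p of the 48 hosts. Its other family member among the hosts, PPFIA1, had a log2 fold change of 0.05 (SE 0.04, adjusted p = 0.555). ERC1, an active-zone scaffold that binds liprins, measured 53.7, 53.7 and 57.5 CPM with the empty vector and 52.0, 47.2 and 49.1 CPM with SRRM4 (log2 fold change -0.15, SE 0.06, adjusted p = 0.0995) and was not called. CASK, a presynaptic scaffold, and SHANK2, a postsynaptic scaffold, were both at -0.06 and not called.

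Of the hosts named for their calls, several overlap another gene in GENCODE v29. On the other strand, PPFIA2 overlaps ACSS3 and PPFIA2-AS1, SVIL overlaps SVIL-AS1, ITSN2 overlaps AC009228.1 and CPEB2 overlaps AC098829.1. On its own strand, RAPGEF6 overlaps AC008695.1 and RF02271, AGRN overlaps AL645608.5 and KIF1B overlaps RN7SL731P. None of these overlapping genes is in the count table, and the sources used here do not say whether counting used strand, so reads of each pair cannot be told apart.

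**Figure D3:**
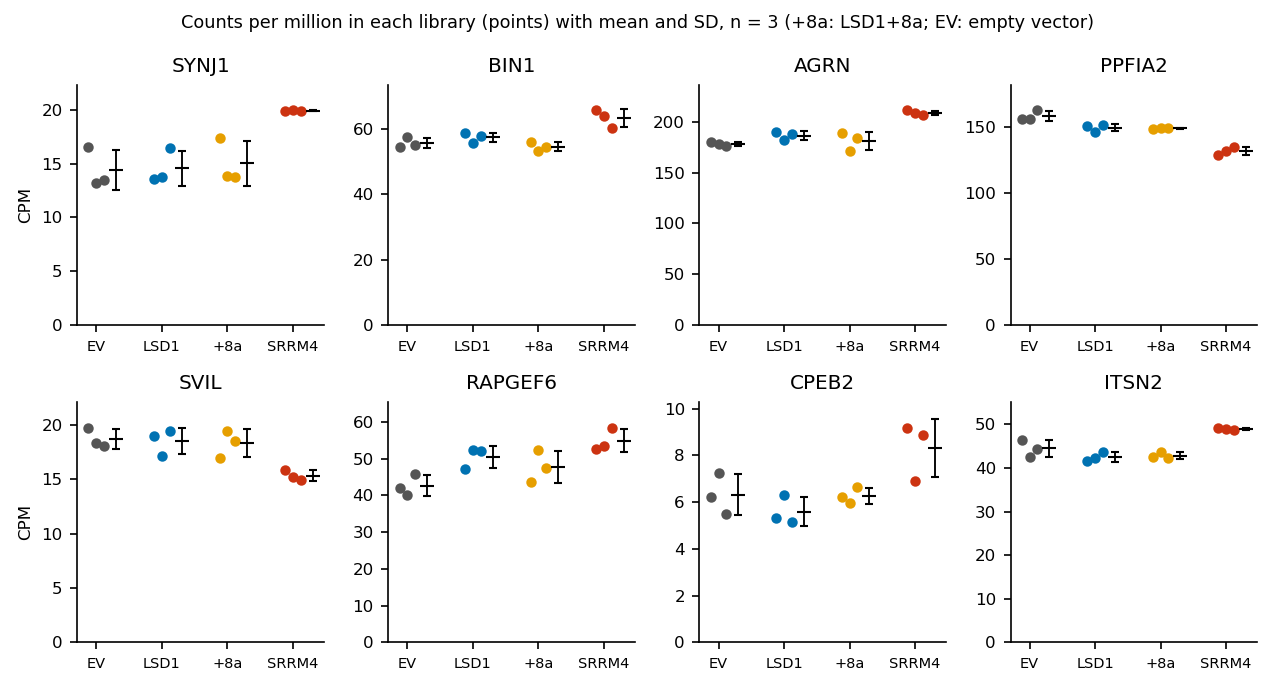
CPM in each of the 12 libraries for 8 hosts (points), with the mean and SD of each group of 3 beside them and axes from 0. The SRRM4 points lie above all others for SYNJ1, BIN1, AGRN, RAPGEF6 and ITSN2 and below all others for PPFIA2 and SVIL, and for CPEB2 the second SRRM4 library overlaps the empty vector.

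None of the 4 receptors was called, namely the receptor tyrosine phosphatases PTPRF, PTPRS and PTPRK and the guidance receptor ROBO1. PTPRF had the smallest p of them. It measured 1120.4, 1149.2 and 1083.4 CPM with the empty vector and 1067.4, 1067.0 and 1048.7 CPM with SRRM4. The SRRM4 libraries lay below, by a log2 fold change of -0.07 (SE 0.03, adjusted p = 0.112). The other 3 lay between -0.02 and 0.04. With GC and length trends removed, PTPRF was called with SRRM4 against the empty vector, LSD1+8a and LSD1.

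Of 8 cytoskeletal and motor genes, 1 fell, beside 3.22% of all genes called lower. SVIL measured 19.7, 18.3 and 18.0 CPM with the empty vector, 19.0, 17.1 and 19.4 with LSD1, 16.9, 19.4 and 18.5 with LSD1+8a, and 15.9, 15.2 and 14.9 with SRRM4. The SRRM4 libraries were the 3 lowest of the 12, with a log2 fold change of -0.29 (SE 0.09, adjusted p = 0.0344). This call was lost under 9 of 25 alternatives. They were the fits without empty-vector library 1 (adjusted p = 0.142) or 2 (0.0550), without SRRM4 library 1 (0.0582), 2 (0.0955) or 3 (0.113), after thinning each library to a total of 10876293 counts (0.115), in DESeq2 (0.181) and with limma on log2(TPM + 1) (0.338) or log2(TPM + 0.1) (0.340).

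KIF1B, a kinesin that carries synaptic vesicle precursors, measured 168.6, 166.4 and 165.3 CPM with the empty vector and 173.8, 179.9 and 175.0 CPM with SRRM4 (log2 fold change 0.08, SE 0.03, adjusted p = 0.173). CLASP1, a microtubule plus-end protein, and ABI1, a WAVE complex subunit, had libraries apart in the same direction without being called. CLASP1 measured 71.9, 70.5 and 69.4 CPM with the empty vector and 75.8, 76.4 and 73.4 CPM with SRRM4 (log2 fold change 0.09, SE 0.05, adjusted p = 0.244). ABI1 measured 31.4, 31.7 and 31.5 CPM and 33.2, 35.3 and 34.5 CPM (0.12, SE 0.06, adjusted p = 0.263). CLASP2, the spectraplakin MACF1, the formin DAAM1 and the furry-like FRYL lay between -0.03 and 0.01.

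RAPGEF6, a guanine exchange factor for Rap GTPases, was the called one of 6 small GTPase regulators, beside 7.68% of all genes. It measured 42.1, 40.1 and 45.7 CPM with the empty vector, 47.1, 52.4 and 52.0 with LSD1, 43.7, 52.4 and 47.5 with LSD1+8a, and 52.7, 53.6 and 58.5 with SRRM4. The SRRM4 libraries were the 3 highest, and the LSD1 libraries also lay above all empty-vector libraries. The log2 fold change with SRRM4 was 0.36 (SE 0.06, adjusted p = 0.000242), and the call was lost with limma on log2(TPM + 1) (adjusted p = 0.0803) and log2(TPM + 0.1) (0.0803). With LSD1 it was 0.24 (SE 0.06, adjusted p = 0.333) and with LSD1+8a 0.16 (SE 0.06, adjusted p = 0.584), neither called. SRRM4 against LSD1 gave 0.12 (SE 0.06, adjusted p = 0.276), so the 2 groups were not shown to differ. ASAP2, an Arf GTPase-activating protein, measured 36.7, 37.8 and 37.0 CPM with the empty vector and 34.3, 33.5 and 34.2 CPM with SRRM4 (log2 fold change -0.13, SE 0.06, adjusted p = 0.223). Its family member ASAP1 was at 0.08. VAV2, DOCK9 and RALGAPA1 lay between -0.04 and 0.04.

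The tyrosine kinases SRC and PTK2 and the APP adaptors APBB1 and APBB2 held no call against the empty vector. SRC measured 59.8, 66.8 and 59.5 CPM with the empty vector and 71.0, 64.2 and 68.7 CPM with SRRM4, and the groups overlapped through empty-vector library 2. The log2 fold change was 0.13 (SE 0.05, adjusted p = 0.120), and without that library it was 0.19 and called (adjusted p = 0.0297). SRC was also called with limma on log2(TPM + 1) (0.31, adjusted p = 0.0421) and log2(TPM + 0.1) (0.32, 0.0420). PTK2, focal adhesion kinase, was level at 96.3 CPM in both groups. APBB1 and APBB2, with identical short exons, had log2 fold changes of 0.11 (SE 0.10) and -0.14 (SE 0.07), and for APBB2 all empty-vector libraries (mean 28.7 ± 0.518 CPM, SD, n = 3) lay above all SRRM4 libraries (26 ± 0.235 CPM).

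Exocyst and membrane traffic genes (EXOC1, EXOC7, MON2 and ZFYVE27) lay between -0.02 and 0.05 on the log2 scale, the narrowest range of any role of 4 or more genes. EXOC7 measured 220.1, 219.1 and 220.2 CPM with the empty vector and 214.8, 234.5 and 231.7 CPM with SRRM4, which overlapped (log2 fold change 0.05, SE 0.04, adjusted p = 0.514). The transcription and chromatin genes MEF2A, MEF2D and ZMYND8 lay between -0.06 and -0.01 and were not called. ZMYND8, a chromatin reader, measured 100.9, 97.3 and 102.8 CPM with the empty vector and 95.6, 98.3 and 94.8 CPM with SRRM4 (adjusted p = 0.409).

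Translation regulators held no call either. CPEB2 measured 6.24, 7.23 and 5.48 CPM with the empty vector, 5.34, 6.30 and 5.15 with LSD1, 6.22, 5.95 and 6.64 with LSD1+8a, and 9.19, 6.89 and 8.88 with SRRM4. SRRM4 library 2 lay below empty-vector library 2 and the other SRRM4 libraries lay above all. The log2 fold change was 0.40 (SE 0.14, adjusted p = 0.0772). It was called without SRRM4 library 2 (0.52, adjusted p = 0.0348) or without empty-vector library 2 (0.51, adjusted p = 0.0444). CPEB4, its paralog, measured 42.5, 40.9 and 41.7 CPM with the empty vector and 45.7, 47.2 and 47.4 CPM with SRRM4 (log2 fold change 0.17, SE 0.06, adjusted p = 0.0811). With GC and length trends removed, CPEB4 was called with SRRM4 against the empty vector and against LSD1+8a. EIF4G1 and EIF4G3 were at 0.05 and -0.05 and were not called, although the EIF4G3 libraries did not overlap (117.4, 117.2 and 115.8 CPM against 112.8, 112.4 and 112.6 CPM).

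LSD1 and LSD1+8a left the hosts without a call. Against the empty vector, 0 of 48 were called for LSD1+8a (0.346% of all genes) and 0 of 48 for LSD1 (0.1% of all genes) in edgeR. DESeq2, limma-voom and limma on log2 TPM also called 0 in both. At an unadjusted p under 0.05 there were 4 hosts in each comparison, beside 6.82% and 5.89% of all genes. The smallest adjusted p was 0.513 for LSD1+8a (DOCK9, log2 fold change -0.16) and 0.333 for LSD1 (RAPGEF6). For LSD1+8a 1 host lay above the empty vector in all libraries (EXOC7) and 6 below, and for LSD1 3 lay above and 7 below, beside 11.8% (6.12% above, 5.64% below) and 11.7% (5.48% above, 6.21% below) of all genes. These 2 comparisons share the 3 empty-vector libraries. DOCK9, an exchange factor for Cdc42, measured 40.4, 40.9 and 40.6 CPM with the empty vector, 37.6, 38.6 and 38.8 with LSD1, 35.9, 36.9 and 36.8 with LSD1+8a and 41.9, 36.5 and 40.2 with SRRM4, whose libraries overlapped each other group. CASK measured 52.9, 55.9 and 51.5 CPM with the empty vector, 47.9, 48.3 and 48.9 with LSD1 (log2 fold change -0.14, SE 0.05, adjusted p = 0.656) and 51.3, 48.9 and 49.4 with LSD1+8a (-0.10, SE 0.05, adjusted p = 0.733). PPFIA2 had log2 fold changes of -0.09 (SE 0.03, adjusted p = 0.584) with LSD1+8a and -0.08 (SE 0.03, adjusted p = 0.774) with LSD1.

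LSD1+8a and LSD1 differ in exon 8a and also in the amount of KDM1A, so their comparison does not isolate the exon. Between them, 0 of 48 hosts were called in edgeR (0.323% of all genes), and DESeq2 also called 0. There was 1 at an unadjusted p under 0.05, beside 6.21% of all genes, and the smallest adjusted p was 0.776. The log2 fold changes ran from -0.10 to 0.16. SYNJ1 differed by 0.05 with an interval of 2 SE from -0.16 to 0.25. For PPFIA2 the difference was -0.00448 on the log2 scale, with an interval from -0.07 to 0.06, and for AGRN -0.04, with an interval from -0.11 to 0.03.

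SRRM4 set against the other transfected groups gave values of the same order, and these comparisons share the 3 SRRM4 libraries with the one above. Against LSD1+8a, 7 hosts were called, 14.6% of the 48 beside 7.58% of all genes (4.42% higher, 3.17% lower) and 12.3% of the 4410 genes with at least as many counts as the median host. AGRN (log2 fold change 0.20, adjusted p = 0.000161), BIN1 (0.21, 0.00511), SYNJ1 (0.40, 0.00903), ITSN2 (0.19, 0.0191), KIF1B (0.12, 0.0306) and RAPGEF6 (0.20, 0.0496) rose, and PPFIA2 fell (-0.18, 0.000904). The count was 3 without LSD1+8a library 3 and 4 without SRRM4 library 1. Against LSD1, 6 hosts were called (12.5%), beside 7.05% of all genes (4.38% higher, 2.67% lower) and 11.6% of those 4410. AGRN (0.16, 0.00277), SYNJ1 (0.45, 0.00386), CPEB2 (0.57, 0.0112), ITSN2 (0.20, 0.0146) and SRC (0.17, 0.0455) rose, and PPFIA2 fell (-0.18, 0.000791). The count was 3 without SRRM4 library 1.

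Several of these calls were lost when 1 library was left out. Against LSD1+8a, SYNJ1 was not called without LSD1+8a library 2 (adjusted p = 0.0635) or 3 (0.0649). ITSN2 was not called there without LSD1+8a library 3 (0.0713) or SRRM4 library 1 (0.0645) or 2 (0.0590). KIF1B was not called without LSD1+8a library 2 or 3 or any 1 SRRM4 library (0.0555 to 0.135). RAPGEF6 was not called without empty-vector library 1, LSD1 library 2 or 3, LSD1+8a library 1 or 3, or any 1 SRRM4 library (0.0525 to 0.230). Against LSD1, CPEB2 was not called without LSD1 library 3 or SRRM4 library 1 or 3 (0.0580 to 0.0738), and ITSN2 without LSD1 library 1 or 2 or SRRM4 library 1 or 2 (0.0510 to 0.0627). SRC was not called with the replicate number as a block (0.0613), or without empty-vector library 1, any 1 LSD1 library, LSD1+8a library 3, or SRRM4 library 1 or 3 (0.0516 to 0.208). PPFIA2 and AGRN were called in both comparisons whichever 1 library was left out.

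Other settings also ended calls in these 2 comparisons. Against LSD1+8a, RAPGEF6 was not called with RLE factors (adjusted p = 0.0506), upper-quartile factors (0.0709), DESeq2 (0.165) or thinned libraries (0.0552), which with the left-out libraries and limma on TPM made 14 of 25 alternatives. KIF1B was not called in DESeq2 (0.0916) or with thinned libraries (0.0521), and ITSN2 not in DESeq2 (0.126). Against LSD1, DESeq2 did not call ITSN2 (0.105), CPEB2 (0.0680) or SRC (0.181), and it called PTPRF. SRC was also not called with upper-quartile factors (0.0656) or with GC and length trends removed (0.0849). With limma on log2(TPM + 1), PPFIA2 was the 1 host called in each comparison, and the other hosts above had adjusted p of 0.0738 to 0.746 against LSD1+8a and 0.0874 to 0.482 against LSD1.

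ITSN2 was called against LSD1+8a and LSD1, KIF1B against LSD1+8a alone, and CPEB2 and SRC against LSD1 alone. Against the empty vector none of these hosts was called. ITSN2 measured 41.5, 42.3 and 43.7 CPM with LSD1 and 42.5, 43.7 and 42.2 CPM with LSD1+8a, somewhat below the empty-vector mean of 44.5 CPM. KIF1B measured 163.2, 164.0 and 159.5 CPM with LSD1+8a, all below its empty-vector values, and 160.7, 168.7 and 173.6 CPM with LSD1. A single test for any difference among the 4 groups called 7 hosts, 14.6% beside 7.34% of all genes. They were PPFIA2, AGRN, RAPGEF6, SYNJ1, BIN1, ITSN2 and CPEB2.

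In the authors' deposited table for SRRM4 over the empty vector, 4 hosts had an adjusted p under 0.05, beside 563 of 13001 genes. These were PPFIA2 (adjusted p = 1.42e-07 in the authors' deposited table), AGRN (6.56e-06), RAPGEF6 (0.000347) and SYNJ1 (0.0112). BIN1 and SVIL had adjusted p of 0.0865 and 0.181 in the authors' deposited table. For LSD1+8a the authors' deposited table held no host under 0.05, and for LSD1 it gave an adjusted p for 2 of the 48.

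Gene totals can also carry a trace of isoform use, since the deposited counts and TPM did not share 1 fixed length per gene. The ratio of count to TPM, centred per library, gives an implied transcript length. It was tested with limma in 47 hosts and 11361 genes in all with at least 50 counts in every library, and AP1S2 was left out. With SRRM4 against the empty vector, 0 hosts were called at an adjusted p under 0.05 (0.0088% of genes, which is 1 gene), and 6 of the 47 had an unadjusted p under 0.05, beside 7.36% of genes. CPEB4 had the smallest, with an implied length 0.22 higher on the log2 scale (SE 0.06, adjusted p = 0.483). ITSN2 (-0.23), APBB2 (-0.21), APBB1 (-0.17), SRC (-0.16) and ABI1 (-0.10) were lower, none called. With LSD1 over the empty vector, CPEB4 was at 0.20 and ITSN2 at -0.25, near their values with SRRM4. APBB1 (-0.11), SRC (-0.10) and ABI1 (-0.06) were also lower with LSD1, and APBB2 was at 0.03. In the other 5 comparisons 0 hosts were called. At an unadjusted p under 0.05 there were 0 hosts for LSD1+8a against the empty vector (4.84% of genes), 3 for LSD1 over that vector (5.84%) and 2 when LSD1+8a was set against LSD1 (4.76%). There were 4 for SRRM4 against LSD1+8a (5.97%) and 4 for SRRM4 against LSD1 (5.73%).

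The spread between libraries exceeded the length that a single annotated short exon adds. The SD of log2 implied length between libraries of a group was 0.09 in the median host and 0.07 in the median gene, and ranged from 0.01 for PTPRF to 0.56 for SYNJ1. Including a single annotated short exon would lengthen its transcript by 0.000417 to 0.06 on the log2 scale. In all 40 hosts with both values, the SD exceeded the largest addition of any of the gene's short exons. Inclusion of a single microexon was therefore not detectable by its own length in these gene-level values. A shift among isoforms that also differ elsewhere is not bounded by these additions.

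**Figure D4:**
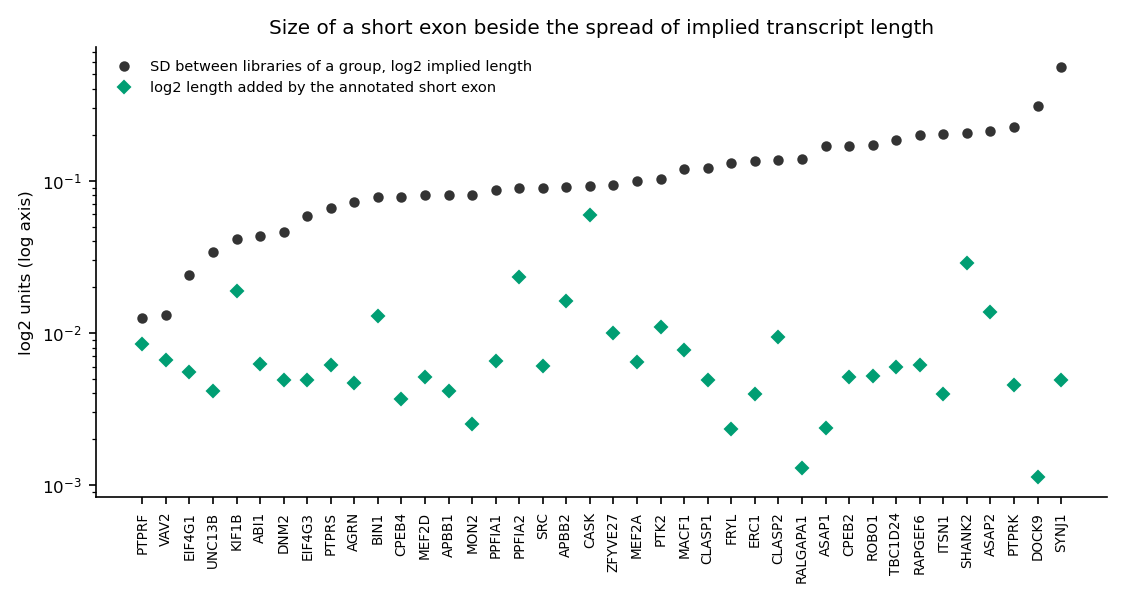
SD of log2 implied transcript length between libraries of a group (dark circles) and the log2 length added by the gene's most length-adding annotated short exon (green diamonds) for 40 hosts, on a log axis. Every circle lies above its diamond, and SYNJ1 has the largest SD, 0.56.

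Hosts were also set beside all genes with a comparable annotated exon, a comparison chosen after the data were seen. Of 10996 coding genes in the table matched to GENCODE v29, 401 (3.65%) had a skippable exon of 3 to 27 bases that keeps the frame, and 41 of the 48 hosts (85.4%) did, as their choice implies. Of those 401 genes, 11.7% were called with SRRM4 against the empty vector, 31 higher and 16 lower, and of the 360 that are not among the 48 hosts, 27 were higher and 15 lower (11.7%). The hosts' longest annotated transcripts had a median of 6689 bases, against 3672 over all matched genes, and they had a median of 14 annotated transcripts, against 8.

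Related genes from lists written for this account were fitted in the same model. Of 25 measured genes among 32 others known for short neural exons, 2 rose and 1 fell with SRRM4, beside 4.47% of all genes higher and 3.22% lower. KDM1A, on that list, was at 0.03 (SE 0.13, adjusted p = 0.937). NFASC, a cell adhesion protein of nodes of Ranvier, measured 7.73, 6.34 and 7.53 CPM with the empty vector and 13.1, 13.7 and 12.9 CPM with SRRM4 (log2 fold change 0.88, SE 0.13, adjusted p = 6.04e-06). GIT1, an Arf GTPase-activating scaffold, was at 0.16 (adjusted p = 0.0194), and MEAF6, a histone acetyltransferase subunit, at -0.20 (adjusted p = 0.00321).

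Of 30 measured paralogs among 48 listed, 3 rose and 2 fell, beside the same 4.47% and 3.22% of all genes. PPFIA3, a liprin-alpha like PPFIA2, measured 31.6, 31.9 and 30.4 CPM with the empty vector and 39.0, 42.6 and 38.9 CPM with SRRM4 (log2 fold change 0.36, SE 0.06, adjusted p = 0.000113). PPFIA2 fell in the same comparison. The kinesins of the KIF1B family also moved both ways, KIF1A at 0.19 (adjusted p = 0.00574) and KIF1C at -0.21 (adjusted p = 0.000553). STXBP5L rose by 0.19 (adjusted p = 0.0385) and APBB3 fell by 0.20 on the log2 scale (adjusted p = 0.0475).

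Neural splicing regulators, 26 of 39 measured, held 1 lower and 0 higher calls with SRRM4, and 9 at an unadjusted p under 0.05, beside 7.68% of all genes called and 20.8% at that unadjusted p. KHDRBS3, an RNA-binding STAR protein, measured 7.498, 7.90 and 7.001 CPM with the empty vector and 5.38, 4.96 and 4.76 CPM with SRRM4 (log2 fold change -0.57, SE 0.14, adjusted p = 0.00907). Its LSD1 libraries were as low, at 4.55, 5.45 and 5.32 CPM, and those of LSD1+8a lay at 6.66, 6.503 and 5.33 CPM. All 10 factors of nonsense-mediated decay were measured and none was called, with 2 at an unadjusted p under 0.05 (20.8% of all genes). SMG8 was at 0.14 (adjusted p = 0.134) and SMG1 at 0.08 (adjusted p = 0.177).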

How the data were processed

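RNA of 12 LNCaP libraries was sequenced by the authors from TruSeq libraries of polyA RNA. The deposited count table holds whole-number counts per gene and the deposited TPM table holds TPM, per the file headers. The authors' comparison table, which carries the name of DESeq2, holds log2 fold changes and a p-value and adjusted p-value for each transfection over the empty vector, per the file headers. The tools listed in the submitters' processing notes are RSEM 1.2.31 and STAR 2.5.3a, with genome build hg19, and no roles are stated. Whether counting used strand is not given in the sources used here.

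Counts were fitted in edgeR 4.0.16 (R 4.3.3) with TMM factors, filterByExpr (0 of 13001 genes removed) and quasi-likelihood F tests (robust) on all 12 libraries together, with no replicate block. The threshold was 0.05 for p adjusted by Benjamini-Hochberg across the 13001 genes. The biological coefficient of variation was 2.98%. Errors of log2 fold changes are SE, each the absolute change over the square root of its F statistic, and intervals are 2 SE. Implied length was tested with limma 3.58.1. Both procedures were tested on simulated data, where the planted change of implied length was larger than any annotated short exon adds. In 12 replicate pairs, chi-square over its degrees of freedom was 1.44 to 2.88, above counting noise. Short exons came from GENCODE v29, and the sequences of some are not reported here.

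The hosts and all gene lists were chosen with earlier results of these data known. Full values go to hosts called in any comparison, to the smallest p of each role with SRRM4 and to the 5 highest and 5 lowest by TPM. From each related list the called genes are named (up to 6), or else the 2 with the smallest p. Alternatives were RLE and upper-quartile factors, removal of KDM1A, other filters, DESeq2 1.42.0, limma-voom, limma-trend on log2(TPM + 1) and log2(TPM + 0.1), a replicate block, fits of 2 groups, GC and length trends removed, thinning to 10876293 counts, and leaving out each library.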

Additional observations from a re-analysis of the deposited data

How the results depend on the processing

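No direction reversed in 750 alternative values of 30 host results (653 kept their side of the threshold, 86 lost a call and 11 gained one). These results are the 3 comparisons with SRRM4 for hosts picked because they were called in at least 1 test. They do not cover the other hosts, and many alternatives refit the same counts. PPFIA2 was called under all 25 alternatives in each of the 3 comparisons with SRRM4, and AGRN under all 25 against the empty vector. In SRRM4 against the empty vector 6 hosts were called, and 4 to 7 when 1 library was left out, 4 of the 6 in DESeq2, and 4 with limma on TPM, of which 3 were among the 6. Over all genes that comparison called 999 in edgeR, 563 in DESeq2, and 327 and 325 with limma on log2(TPM + 1) and log2(TPM + 0.1). SRRM4 against LSD1+8a called 7 hosts, 4 in DESeq2, 1 with limma on log2(TPM + 1), 1 with log2(TPM + 0.1), and 3 to 7 with 1 library left out. SRRM4 against LSD1 called 6, 4 in DESeq2 (3 of them among the 6), 1 and 1 with limma on TPM, and 3 to 7 with 1 library left out. With GC and length trends removed, SRRM4 called 7 hosts against the empty vector, 9 against LSD1+8a and 7 against LSD1. Of these, 5, 7 and 5 were also called in the main fit. The test over 4 groups called 7, 4 in DESeq2's likelihood ratio test, 1 and 1 with limma on TPM, and 4 to 8 with 1 library left out. The cause was not tested. The 3 comparisons without SRRM4 called 0 hosts under every alternative, and implied length called 0 with a minimum of 200 counts, with a replicate block and with each library left out.

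Replicate numbers did not pair the libraries. Same-numbered libraries had correlations of their deviations from -0.188 to 0.0928 (median -0.0447, 18 pairs, none over 0.1), and 1 of 12 correlated best with its own number. With the replicate block SRRM4 against the empty vector called the same 6 hosts, and over all genes 887 in place of 999. At this depth the SE of a log2 fold change was 0.03 for PTPRF and 0.23 for AP1S2, which sets the smallest detectable change of each host.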
